A study of Mus musculus with 9 samples.

Results

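The GADD45 family of mouse plasmacytoid dendritic cells (pDCs) comprises here the paralogs Gadd45a, Gadd45b and Gadd45g together with Gadd45gip1, the gene of a GADD45-binding protein. The 4 genes were matched by symbol to the Ensembl identifiers of a count table of 57126 genes, and all 4 passed the filter on low counts that left 17555 tested genes. The family was selected on its CPM by group and replicate in these 9 libraries (CPM, counts relative to the TMM-normalised library size), so levels and fold changes are a description, and the p-values of the model over all genes, given for completeness, support nothing. RNA was sequenced from pDCs sorted by flow cytometry after treatment with oxidized mitochondrial DNA (Ox-mtDNA), mitochondrial DNA that was not oxidized (mtDNA) or phosphate-buffered saline (PBS), as 3 libraries per treatment. The question was how pDCs respond to mitochondrial DNA and whether oxidation alters that response. Genotype, strain, age, dose and time are not given in the sources used here, nor whether replicates were separate animals or cultures, so errors measure the spread between these libraries, which may be technical.

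GADD45 proteins (growth arrest and DNA damage inducible) are small acidic proteins without known enzymatic activity that act by binding others. They bind and activate the kinase MAP3K4, which feeds the p38 and JNK stress kinases, and they bind PCNA, the cell cycle inhibitor p21 and the CDK1 and cyclin B1 complex. Gadd45a is a classical p53 target, Gadd45b was first described as a myeloid differentiation response gene and is a target of NF-kB and of TGF-beta signalling, and Gadd45g was first described as a cytokine-induced gene. In T cells, Gadd45b and Gadd45g act in the p38 signalling that drives interferon-gamma production. Gadd45gip1, also called CRIF1, is no paralog of the other members. It encodes a protein of the large subunit of the mitochondrial ribosome.

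Total counts ranged from 16029951 to 25378884 per library. The 3 libraries numbered replicate 3 stood apart from the other 6 on the first principal component (72.3% of the variance of log2 values). Xist RNA, which coats the inactive X chromosome, was found at 818 to 2090 CPM in those 3 libraries and at 0 to 0.846 CPM in the other 6. Replicate 3 thus differed from the others in the cells used, and the part of sex in the levels below was not tested. Transcripts of high GC content were low in the replicate 3 libraries: the 2842 tested genes of 55 to 60% GC had median log2 differences of -1.05, -1.16 and -1.34 between replicate 3 and the mean of replicates 1 and 2 in Ox-mtDNA, mtDNA and PBS. Gadd45g (59.9% GC) and Gadd45b (56.9%) lie in that range, and Gadd45gip1 (54.9%) and Gadd45a (49.8%) lie below it, so values are given by replicate number throughout. The defining pDC markers were present, and the 14 on the list summed to 5020 to 11400 CPM in Ox-mtDNA, 7570 to 11300 CPM in mtDNA and 9430 to 13300 CPM in PBS. Of these 14, 2 had positive fold changes in Ox-mtDNA against PBS, with a median log2 fold change of -0.74 against 0.06 over all tested genes and medians of -0.33, -1.25 and -0.2 by replicate number. In mtDNA against PBS 2 of 14 were positive, with a median of -0.13 against 0.02. The endosomal receptor gene Tlr7 (-1.41, SE 0.27), the chemokine receptor gene Ccr9 (-1.25, SE 0.417) and the pDC transcription factor gene Tcf4 (-1.05, SE 0.391) had the lowest fold changes in Ox-mtDNA against PBS, none past the threshold over all genes, and were chosen after their values were seen. Genes listed as markers of other cells were also detected, and of 74 such markers none was at 0 in all 9 libraries. Whether pDCs or other cells gave these counts was not tested. Summed levels in Ox-mtDNA, mtDNA and PBS were 565 to 1410, 1120 to 1320 and 1070 to 1580 CPM for conventional dendritic cells, 816 to 1320, 1120 to 1330 and 1360 to 2440 CPM for monocytes and macrophages, and 2970 to 3250, 1880 to 3150 and 2680 to 3460 CPM for B cells. They were 389 to 541, 318 to 692 and 433 to 669 CPM for T cells and 38.1 to 80.3, 70.5 to 83.3 and 63.5 to 183 CPM for natural killer cells. Neutrophil and erythroid markers summed to at most 25 and 1.22 CPM in any library. The part of any other cells, and of the pDC marker levels, in the levels below was not tested. In bulk RNA fewer cells of a type and less RNA per cell cannot be told apart.

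Ox-mtDNA pDCs held more Gadd45g and Gadd45a RNA than PBS pDCs in every library, while Gadd45b varied between libraries and Gadd45gip1 overlapped between the groups. Gadd45g (ENSMUSG00000021453.3, chromosome 13, 52000714 to 52002504, plus strand, GRCm39) had 59.3, 89.3 and 56.3 CPM in Ox-mtDNA replicates 1, 2 and 3, against 5.02, 5.67 and 1.94 CPM in PBS. The lowest Ox-mtDNA library was thus far above the highest PBS library. Means were 68.3 ± 18.2 CPM in Ox-mtDNA and 4.21 ± 2 CPM in PBS (SD, n = 3 each). The model put the log2 fold change at 4.02 (SE 0.725, 95% confidence interval 2.36 to 5.68), or 16.2-fold. By replicate number, the log2 differences were 3.44, 3.86 and 4.54. Counts behind these values were 879, 1688 and 1091 in Ox-mtDNA and 108, 110 and 51 in PBS, so counting error is small beside the spread between libraries.

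Gadd45a (ENSMUSG00000036390.9, chromosome 6, 67012080 to 67014390, minus strand) had 26.6, 50.2 and 61.5 CPM in Ox-mtDNA replicates 1, 2 and 3, against 12.3, 9.28 and 8.88 CPM in PBS. The groups did not overlap, but the distance between them differed by replicate number, with log2 differences of 1.08, 2.37 and 2.73. Means were 46.1 ± 17.8 CPM in Ox-mtDNA and 10.2 ± 1.88 CPM in PBS (SD, n = 3 each), and the fitted log2 fold change was 2.18 (SE 0.806, interval 0.33 to 4.04).

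Gadd45b (ENSMUSG00000015312.10, chromosome 10, 80765907 to 80768038, plus strand) had 86.1, 223 and 62.4 CPM in Ox-mtDNA replicates 1, 2 and 3, against 85.2, 86.6 and 80.1 CPM in PBS. Ox-mtDNA replicate 2 alone was above the PBS libraries by a wide margin, replicate 1 lay among them and replicate 3 lay below them. The log2 fold change of 0.56 (SE 0.456, interval -0.48 to 1.61) turned to -0.19 without Ox-mtDNA replicate 2. That library also had the lowest pDC marker sum of the 9 (5020 CPM), whose part in the Gadd45b level was not tested.

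Gadd45gip1 (ENSMUSG00000033751.6, chromosome 8, 85558151 to 85562111, plus strand) had 38.3, 30.7 and 37.1 CPM in Ox-mtDNA and 39, 39.5 and 26.5 CPM in PBS. Both groups covered nearly the same range, and the log2 fold change was 0.02 (SE 0.254) with an interval of -0.57 to 0.6.

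Of the 4 members, 4 had positive fold changes in Ox-mtDNA against PBS, as did 53.8% of all tested genes. In 2 members every Ox-mtDNA library lay above every PBS library, against 7.39% of all tested genes. Gadd45g was at least 2 log2 units higher in all 3 pairs of equal number, as were 0.33% of tested genes. That cut was chosen with results of these data known, and Gadd45g was selected on these values, so the share supports nothing. By the edgeR quasi-likelihood test with Benjamini-Hochberg adjustment over all genes, 0 of 4 members passed, as 0% of tested genes did. The adjusted p was 0.472 for Gadd45g, 0.473 for Gadd45a, 0.83 for Gadd45b and 1 for Gadd45gip1, and 1722 genes had an unadjusted p under 0.05. DESeq2 called 370 genes (2.11% of those tested), Gadd45g among them (adjusted p = 3.59e-05), and limma-voom called 0. In replicates 1 and 2 only, edgeR called 25 genes (0.146%), Gadd45g among them at a log2 fold change of 3.8 (edgeR adjusted p = 0.0339), but 0 with the replicate number as a block. With all 9 libraries and that block, edgeR called 1 gene (0.0057%), which was no member.

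**Figure D1:**
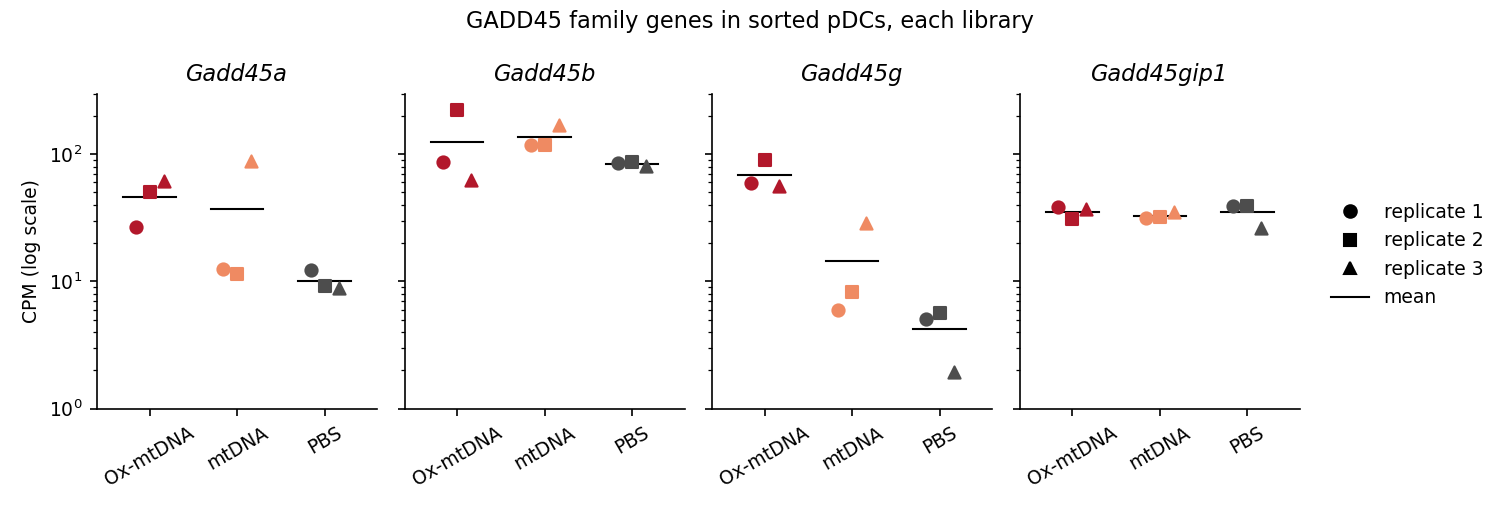
CPM of each member (log axis) in the 3 Ox-mtDNA, 3 mtDNA and 3 PBS libraries, with a symbol per replicate number and a line at the group mean. Gadd45g is at 56.3 to 89.3 CPM in Ox-mtDNA and at 1.94 to 5.67 CPM in PBS, mtDNA replicate 3 stands above the other mtDNA libraries for Gadd45a and Gadd45g, and Gadd45gip1 is at 26.5 to 39.5 CPM everywhere.

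After mtDNA that was not oxidized, Gadd45b was above PBS in every library by a modest amount, and Gadd45a and Gadd45g stood far above PBS in replicate 3. Gadd45b had 119, 118 and 171 CPM in mtDNA replicates 1, 2 and 3, against the 80.1 to 86.6 CPM of PBS. The groups did not overlap, with log2 differences of 0.48, 0.45 and 1.09 by replicate number and a log2 fold change of 0.7 (SE 0.457, interval -0.35 to 1.74). Gadd45g had 5.92, 8.32 and 28.8 CPM in mtDNA, against 5.02, 5.67 and 1.94 CPM in PBS. Every mtDNA library was above every PBS library, narrowly in replicates 1 and 2. The log2 differences were 0.22, 0.52 and 3.59, the last set by both a high mtDNA library and a low PBS library. Gadd45a had 12.5, 11.5 and 88 CPM in mtDNA, against 12.3, 9.28 and 8.88 CPM in PBS, with log2 differences of 0.02, 0.3 and 3.24. The groups overlapped in replicates 1 and 2, and mtDNA replicate 3 held the highest Gadd45a level of the 9 libraries.

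The fitted log2 fold changes of Gadd45a and Gadd45g in mtDNA against PBS rest largely on mtDNA replicate 3. They were 1.88 (SE 0.798) for Gadd45a and 1.77 (SE 0.663) for Gadd45g with all libraries, and 0.19 and 0.73 without mtDNA replicate 3. In replicates 1 and 2 only they were 0.15 (SE 0.357) and 0.41 (SE 0.307). Without PBS replicate 3, Gadd45g was at 1.41. Gadd45b went from 0.7 to 0.44 without mtDNA replicate 3. Gadd45gip1 had 31.6, 32 and 35 CPM in mtDNA and a log2 fold change of -0.09 (SE 0.254, interval -0.67 to 0.49), within the range of the PBS libraries. Of the members, 3 of 4 had positive fold changes, as did 52% of tested genes, and 2 of 4 had every mtDNA library above every PBS library, as did 5.58% of tested genes. No member passed over all genes (edgeR adjusted p = 1 for each of the 4), as 0% of tested genes did. The number at an unadjusted p under 0.05 was 460 genes, and DESeq2 called 14 genes (0.0797%) and limma-voom 0.

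Set directly against mtDNA, Ox-mtDNA pDCs held more Gadd45g in every library, and the other members overlapped. The lowest Ox-mtDNA library had 56.3 CPM of Gadd45g and the highest mtDNA library 28.8 CPM. Log2 differences by replicate number were 3.22, 3.35 and 0.95, so the distance was large in replicates 1 and 2 and small in replicate 3. The log2 fold change was 2.25 (SE 0.671, interval 0.71 to 3.79) with all libraries, 3.29 without mtDNA replicate 3 and 3.39 (SE 0.326) in replicates 1 and 2 only. For Gadd45a the differences were 1.06, 2.08 and -0.51, with Ox-mtDNA above mtDNA in replicates 1 and 2 and below it in replicate 3. Its log2 fold change of 0.31 (SE 0.772, interval -1.47 to 2.08) was 2 without mtDNA replicate 3. Gadd45b had differences of -0.46, 0.91 and -1.44 and a log2 fold change of -0.13 (SE 0.455). Gadd45gip1 had a log2 fold change of 0.11 (SE 0.254, interval -0.48 to 0.69).

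Positive fold changes were found in 3 of 4 members and in 54.2% of tested genes, and non-overlap with Ox-mtDNA above in 1 of 4 members and in 2.04% of tested genes. No member passed over all genes (edgeR adjusted p = 1 for each), as 0% of tested genes did. DESeq2 called 1 gene (0.0057%), which was no member, limma-voom called 0, and 422 genes had an unadjusted p under 0.05 by edgeR. The 3 comparisons share libraries, so their values are not independent of each other.

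**Figure D2:**
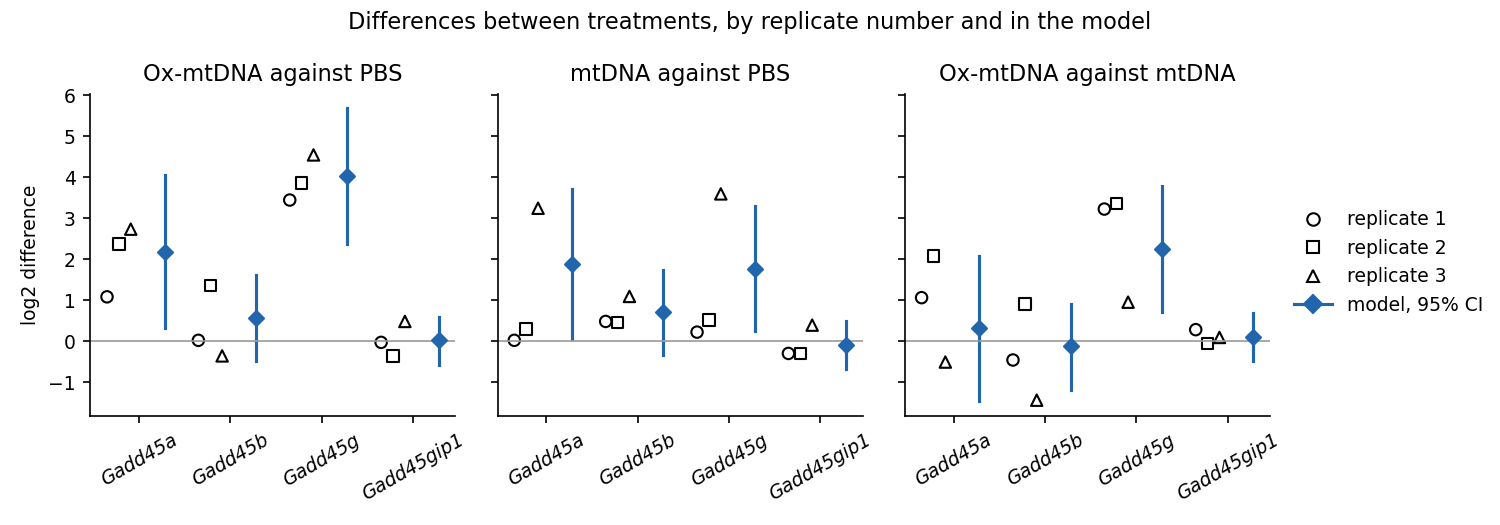
Log2 differences of each member in the 3 comparisons. Open symbols are log2(CPM + 0.5) differences by replicate number, and diamonds with bars are the model's log2 fold changes with 95% confidence intervals. Gadd45g is at 3.44 to 4.54 in the 3 pairs of Ox-mtDNA against PBS, and the replicate 3 triangles of Gadd45a (3.24) and Gadd45g (3.59) stand apart in mtDNA against PBS.

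Per length of exon, Gadd45b was the most abundant member of PBS and mtDNA pDCs, and Gadd45g came close to it after Ox-mtDNA. In CPM per kilobase, Ox-mtDNA levels averaged 90.4 ± 63.3 for Gadd45b, 63.8 ± 17 for Gadd45g, 37.7 ± 14.6 for Gadd45a and 14.2 ± 1.64 for Gadd45gip1 (SD, n = 3). The first 3 of these overlap in their spread. The mtDNA levels were 99.1 ± 21.9 for Gadd45b, 30.5 ± 35.9 for Gadd45a, 13.4 ± 11.7 for Gadd45g and 13.2 ± 0.735 for Gadd45gip1, of which the last 3 overlap. In PBS the order was Gadd45b (61.2 ± 2.48), Gadd45gip1 (14 ± 2.96), Gadd45a (8.31 ± 1.54) and Gadd45g (3.93 ± 1.86), and each of the 4 stood clear of its neighbour in every PBS library. Among all tested genes ranked per kilobase, Gadd45g stood at percentile 92.9 in Ox-mtDNA, 67.2 in mtDNA and 40.5 in PBS.

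The make-up of the paralog pool differed accordingly. Gadd45g contributed 39.6, 29 and 35.4% of the summed CPM per kilobase of the 3 paralogs in Ox-mtDNA replicates 1, 2 and 3, against 5.4, 7.5 and 12.1% in mtDNA and 6.1, 7 and 2.7% in PBS. The Gadd45b share was 44.9, 56.7 and 30.7% in Ox-mtDNA, 84.6, 83.4 and 55.7% in mtDNA and 80.8, 83.1 and 86.6% in PBS. Ox-mtDNA replicate 3 was the only library in which Gadd45b was not the first of the 3. Gadd45a made up 14.3 to 33.9% in Ox-mtDNA, 9.1 to 32.2% in mtDNA and 10 to 13.1% in PBS, with its highest share in replicate 3 of both DNA treatments. Gadd45b and Gadd45g lie in the GC range that was low in replicate 3, and Gadd45a lies below it. The part of GC content in the replicate 3 shares was not tested. The summed level was 140, 287 and 148 CPM per kilobase in Ox-mtDNA, 102, 103 and 223 in mtDNA and 76.8, 76 and 67.5 in PBS.

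**Figure D3:**
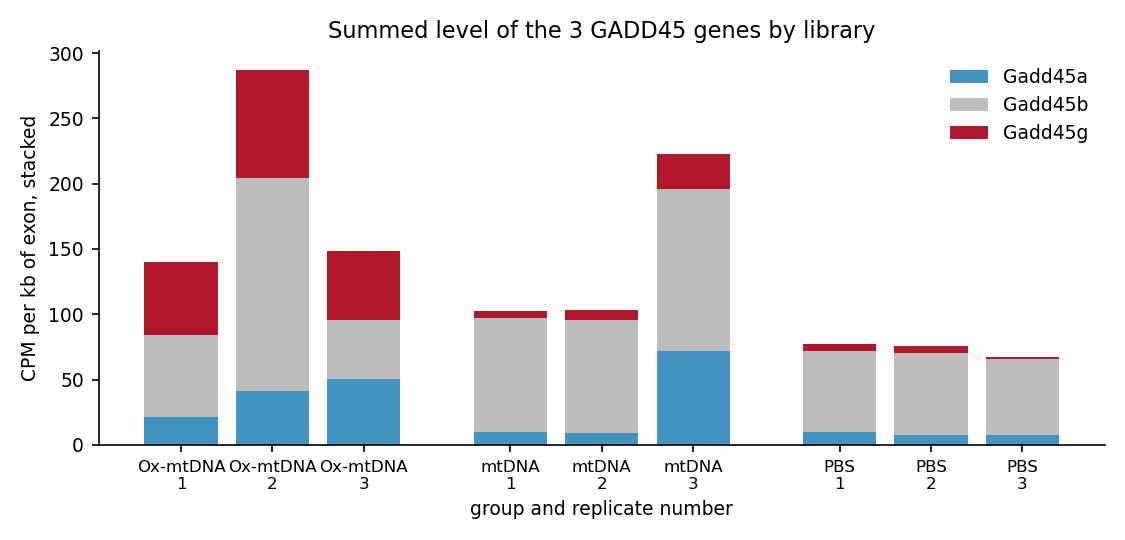
Stacked CPM per kilobase of exon of Gadd45a, Gadd45b and Gadd45g in each of the 9 libraries. The Gadd45g segment is 29 to 39.6% of the bar in Ox-mtDNA libraries and 2.7 to 12.1% in mtDNA and PBS libraries.

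Across the 9 libraries, with each value taken as the difference from the mean of its replicate number, Gadd45a and Gadd45g correlated at r = 0.932, Gadd45a and Gadd45b at 0.564, and Gadd45b and Gadd45g at 0.343. Gadd45gip1 correlated with Gadd45a, Gadd45b and Gadd45g at 0.357, -0.356 and 0.333. These values describe 9 libraries, which are not independent points once the mean of each replicate number is subtracted. By the same measure, the 5 genes most like Gadd45g, among 11543 with a mean of at least 5 CPM, were Errfi1, a feedback inhibitor of EGF receptor signalling (0.995), Ppan (0.994), the immediate-early gene Ier2 (0.994), Ppp1r15a (0.992) and Cltb, a clathrin light chain (0.992). Errfi1 had log2 fold changes of 4.07 in Ox-mtDNA against PBS and 2.7 in mtDNA against PBS, where Gadd45g had 4.02 and 1.77. Ppp1r15a, which restores translation after stress and is itself known as GADD34, had 3.36 and 1.49. Ppan and Cltb differed less between groups, with 0.66 and 0.81 in Ox-mtDNA against PBS.

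The genes most like Gadd45a were E230016M11Rik (0.999), Patl1 (0.998), Ppp2r2a (0.997), the nuclear receptor gene Nr1d2 (0.993) and Mrps18b (0.992). Those most like Gadd45b were the nuclear exonuclease gene Xrn2 (0.983), Ovca2 (0.968), Gm11973 (0.958), Gm49797 (0.958) and Zfp62 (0.956). Amplitude does not enter the measure, and Xrn2 had log2 fold changes of only 0.02 and 0.08 in Ox-mtDNA and mtDNA against PBS. For Gadd45gip1 the closest genes were Shb (0.988), Txlna (0.965), ENSMUSG00002075921.1 (0.965), the hexokinase gene Hk1 (0.962) and Fam160b1 (0.96). Plain correlations, without subtracting the mean of the replicate number, were lower. For the genes named, they ran from 0.013 (Xrn2) to 0.957 (Gm49797) with Gadd45b and from 0.313 (Ppan) to 0.972 (Ppp1r15a) with Gadd45g. With Gadd45a they ran from 0.687 (Ppp2r2a) to 0.998 (E230016M11Rik), and with Gadd45gip1 from 0.415 (Shb) to 0.898 (Fam160b1).

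The closest match of Gadd45a, E230016M11Rik, overlaps it on the opposite strand. The counts did not use strand, and a fragment over exons of both genes was counted for both. The pair shares 238 exonic bases, 19.5% of the Gadd45a exons, and the E230016M11Rik count was 60.9 to 62.1% of the Gadd45a count in Ox-mtDNA, 59.8 to 65.6% in mtDNA and 61.1 to 70.5% in PBS. That share varied little while Gadd45a counts ranged from 180 to 1618, and reads of the 2 genes cannot be told apart over the shared bases. Gadd45b and Gadd45g overlap no other annotated exon.

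**Figure D4:**
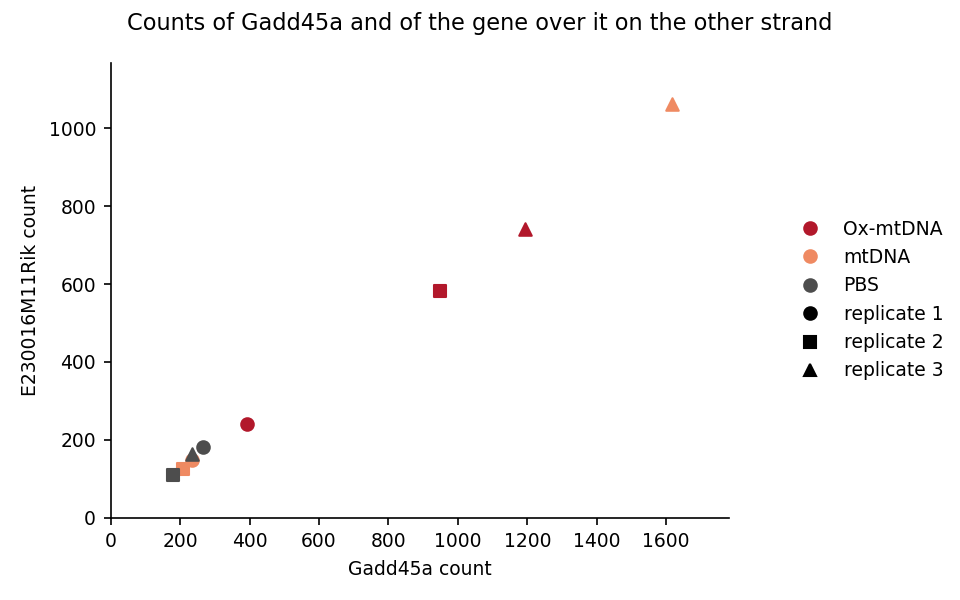
Counts of Gadd45a (horizontal axis) against counts of E230016M11Rik (vertical axis) in the 9 libraries, coloured by group with a symbol per replicate number. The points lie near a straight line, with E230016M11Rik at 59.8 to 70.5% of the Gadd45a count.

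The promoters of the 3 paralogs are shown because Gadd45a and Gadd45g correlated at 0.932 by the measure above and Gadd45b less with either. They are the 250 bases before the start of transcription, 5' to 3', from RefSeq on GRCm38.p6 (chr13:51846425-51846674, plus strand, for Gadd45g; chr6:67037408-67037657, minus strand, for Gadd45a; chr10:80929841-80930090, plus strand, for Gadd45b). Capitals mark motifs found by letter match on either strand.
Gadd45g: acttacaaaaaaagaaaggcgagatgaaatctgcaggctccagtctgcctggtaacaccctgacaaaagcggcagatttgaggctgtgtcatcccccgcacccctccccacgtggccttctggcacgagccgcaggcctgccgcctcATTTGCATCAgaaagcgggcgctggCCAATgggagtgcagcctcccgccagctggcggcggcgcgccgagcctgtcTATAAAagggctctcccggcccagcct
Gadd45a: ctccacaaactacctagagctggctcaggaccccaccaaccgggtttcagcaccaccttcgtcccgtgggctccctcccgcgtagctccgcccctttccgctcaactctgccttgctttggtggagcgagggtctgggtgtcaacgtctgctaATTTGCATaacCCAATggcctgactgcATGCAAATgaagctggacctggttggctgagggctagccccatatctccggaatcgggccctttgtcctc
Gadd45b: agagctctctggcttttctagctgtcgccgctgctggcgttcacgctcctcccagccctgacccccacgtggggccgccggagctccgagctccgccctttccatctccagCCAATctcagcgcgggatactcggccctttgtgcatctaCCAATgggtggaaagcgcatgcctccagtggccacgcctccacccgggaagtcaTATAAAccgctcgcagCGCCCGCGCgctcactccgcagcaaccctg
All 3 hold the CCAAT box (CCAAT), found in 37.4% of the 32851 RefSeq promoter windows of 300 bases (250 before to 50 after the start). It lies from -78 to -74 in Gadd45g, from -86 to -82 in Gadd45a, and from -139 to -135 and from -100 to -96 in Gadd45b, counted back from the start. The TATA box (TATAAA, 13.6% of windows) is present in Gadd45g from -27 to -22 and in Gadd45b from -46 to -41. Gadd45g and Gadd45a hold the octamer (ATGCAAAT on either strand, 1.74% of windows), the letters of a POU factor element known from the human GADD45A promoter, which was searched for after these sequences had been read. Gadd45a has it from -97 to -90 and from -70 to -63 and Gadd45g from -103 to -96. In Gadd45g it overlaps TGATGNAA (3.97% of windows), the letters of the ATF4 and CHOP composite element, which lies on the minus strand from -101 to -94. Gadd45b has GCGNGGGCG, the letters of an EGR element (5.55% of windows), on the minus strand from -30 to -22. The letters TGANTCA (AP-1, 7.81% of windows), TGACGTCA (CRE, 1.79%), GAANNTTC (heat shock element, 7.86%) and those of the NF-kB motif (1.63%) are not in these windows. Each match is a description of the letters.

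Genes around the family were read from 7 lists that were drawn up with earlier results of these data known. In every list and all 3 comparisons, 0 members passed the edgeR quasi-likelihood test over all genes. Among 11 GADD45 partners, 6 had positive fold changes in Ox-mtDNA against PBS, with a median of 0.11 against 0.06 over all tested genes, and 7 in mtDNA against PBS, with a median of 0.03 against 0.02. Cdkn1a, the gene of p21, had 106, 777 and 97.6 CPM in Ox-mtDNA and 173, 118 and 65.5 CPM in PBS. As with Gadd45b, Ox-mtDNA replicate 2 alone was far above PBS. Map3k4, the kinase that GADD45 proteins activate, overlapped between Ox-mtDNA and PBS, with 41.5, 25 and 41.3 CPM in Ox-mtDNA, 49.9, 45.9 and 48.8 CPM in mtDNA and 61.2, 53.9 and 31.4 CPM in PBS. The nucleolar gene Npm1 and the repair nuclease gene Ercc5 had log2 fold changes of 0.64 (SE 0.5) and 0.67 (SE 0.508) in Ox-mtDNA against PBS.

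Of 15 tested genes of the p38 and JNK cascade, 7 had positive fold changes in each of Ox-mtDNA and mtDNA against PBS, with medians of -0.04 and -0.02. The kinase genes Map2k3, Map2k4 and Mapk12 had log2 fold changes of 1.05 (SE 0.739), -0.74 (SE 0.527) and 0.78 (SE 0.591) in Ox-mtDNA against PBS, each within 2 standard errors of 0. Of 14 known regulators of GADD45 genes, 13 had positive fold changes in each of these comparisons, with medians of 0.28 and 0.32. By replicate number the medians were -0.12, 0.75 and 0.39 for Ox-mtDNA against PBS and 0.17, 0.23 and 0.45 for mtDNA against PBS, so replicate 1 went the other way after Ox-mtDNA. Atf4, the transcription factor of the integrated stress response, had 371, 511 and 437 CPM in Ox-mtDNA, 179, 201 and 498 CPM in mtDNA and 158, 151 and 168 CPM in PBS. Every Ox-mtDNA library was above PBS, as for Gadd45g, but mtDNA replicate 3 was above Ox-mtDNA replicates 1 and 3, where Gadd45g was lower in every mtDNA library than in any Ox-mtDNA library. Egr1, an immediate-early transcription factor, had 195, 222 and 9.6 CPM in Ox-mtDNA and 14.8, 13.9 and 0.38 CPM in PBS. Myc, which represses Gadd45a, had 35.4, 37.8 and 9.8 CPM in Ox-mtDNA and 9.21, 7.84 and 1.37 CPM in PBS, and Brca1, the DNA repair gene, 45.7, 38.5 and 67.3 against 46.1, 30 and 53.1 CPM. Trp53 itself, the gene of p53, had log2 fold changes of 0.08 (SE 0.228) and -0.16 (SE 0.228) in Ox-mtDNA and mtDNA against PBS.

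Of 19 tested p53 targets, 16 had positive fold changes in Ox-mtDNA against PBS with a median of 0.84, and 10 in mtDNA against PBS with a median of 0.05. The median differences of Ox-mtDNA from PBS by replicate number were -0.69, 1.78 and -0.35, so the median of the fits follows replicate 2. Plk2, a stress-induced kinase, had 89.1, 87.7 and 289 CPM in Ox-mtDNA, 8.81, 10 and 264 CPM in mtDNA and 6.09, 3.71 and 4.4 CPM in PBS. Pmaip1, the death-promoting NOXA, had 731, 477 and 1610 CPM in Ox-mtDNA, 134, 145 and 1540 CPM in mtDNA and 76, 69.1 and 103 CPM in PBS. Both were above PBS in every Ox-mtDNA library and stood high in mtDNA replicate 3, which exceeded Ox-mtDNA replicates 1 and 2. For Gadd45a that library exceeded all 3 Ox-mtDNA libraries, and for Gadd45g none. Sesn1, a p53-induced stress gene, was at 31.5, 43.5 and 73.9 CPM in Ox-mtDNA and 66.3, 73.5 and 111 CPM in PBS.

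Of 17 stress and immediate-early genes, which are also known as a sign of handling stress, 16 had positive fold changes in Ox-mtDNA against PBS with a median of 2.67, and 15 in mtDNA against PBS with a median of 0.99. Their median differences by replicate number were 2.97, 2.6 and 3.23 for Ox-mtDNA against PBS and 0.48, 0.39 and 2.77 for mtDNA against PBS. The Gadd45g differences were 3.44, 3.86 and 4.54 and 0.22, 0.52 and 3.59 in the same comparisons, and the part of handling in its level was not tested. Ppp1r15a had 148, 179 and 71 CPM in Ox-mtDNA, 25.4, 19.2 and 64 CPM in mtDNA and 18.5, 15.2 and 5.16 CPM in PBS. Dusp1, a MAP kinase phosphatase, had log2 differences from PBS of 5.18, 4.53 and 5.56 after Ox-mtDNA and 0.9, 1.1 and 5.18 after mtDNA. The stress-induced transcription factor genes Atf3 and Nr4a1 had log2 fold changes of 6.46 (SE 1.64) and 5.16 (SE 1.28) in Ox-mtDNA against PBS.

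Genes that share the mitochondrial ribosome with Gadd45gip1 had median fold changes somewhat below those of all tested genes. Of 51 genes of the large subunit of the mitochondrial ribosome, 23 had positive and 28 negative fold changes in Ox-mtDNA against PBS. In mtDNA against PBS, 16 were positive and 35 negative. The median was -0.09 in both, against 0.06 and 0.02 over all tested genes. Every Ox-mtDNA library lay above every PBS library in 0 of the 51, against 7.39% of all tested genes, and below in 8. For mtDNA these numbers were 0, against 5.58% of all tested genes, and 6. The share of all tested genes that lay below is not given here. The 8 and 6 are therefore not read as a result about this list. Mrpl41 was lower than in every PBS library, at 11.5, 13 and 8.62 CPM in Ox-mtDNA, 11.8, 14.3 and 9.35 CPM in mtDNA and 17.3, 20.5 and 31.9 CPM in PBS. Mrpl36, Mrpl44 and Mrpl22 had log2 fold changes of -0.64 (SE 0.261), -0.66 (SE 0.3) and -0.71 (SE 0.335) in Ox-mtDNA against PBS. With Mrpl41 they are named for the smallest p against PBS, and 23 of the 51 genes went the other way. The 13 mitochondrially encoded mRNAs, which that ribosome translates, had a median of 0.6 with 11 positive in Ox-mtDNA against PBS, and a median of -0.19 with 2 positive in mtDNA against PBS. By replicate number the medians of Ox-mtDNA against PBS were 1, 1.12 and -0.23. The cells had been treated with mitochondrial DNA, and the counts did not use strand. The part of that added DNA in the counts of these 13 genes was not tested. Fragments with several alignments were not counted, and the part of that rule in the levels of these genes was not tested either. The genes named next had the smallest p against PBS of the 13. In Ox-mtDNA against PBS, mt-Nd2 was at 0.35 (SE 0.346), mt-Nd5 at -0.04 (SE 0.294) and mt-Nd6 at -0.17 (SE 0.295). The cytochrome oxidase gene mt-Co3 had 20.1, 24.6 and 16.5 CPM in Ox-mtDNA and 7.07, 6.65 and 13.2 CPM in PBS, and mt-Co2 had 18.8, 23.1 and 17.9 against 9.12, 7.42 and 15.1 CPM. The ATP synthase genes mt-Atp6 and mt-Atp8 had log2 fold changes of 1.17 (SE 0.471) and 0.96 (SE 0.516).

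**Figure D5:**
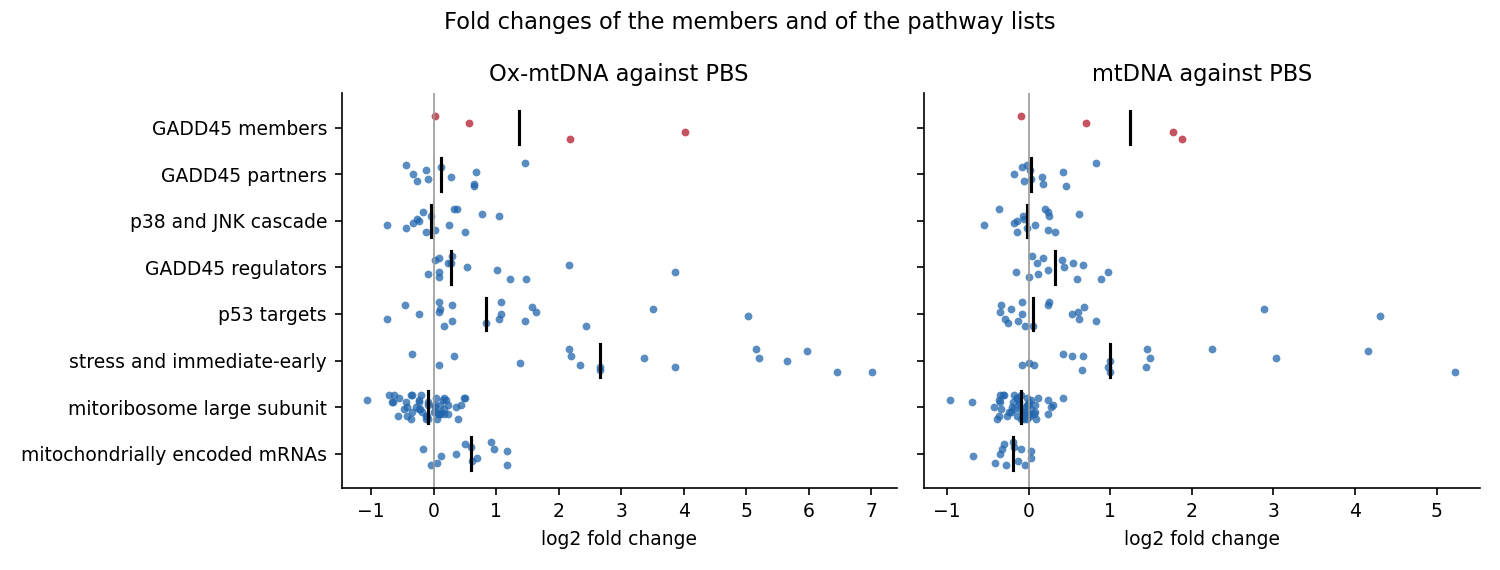
Log2 fold changes of the 4 members (top row) and of the tested genes of 7 lists in Ox-mtDNA against PBS (left) and mtDNA against PBS (right), a point per gene with a bar at the median. Stress and immediate-early genes have medians of 2.67 and 0.99. Medians of the partners, the p38 and JNK cascade and the mitochondrial ribosome lie between -0.09 and 0.11.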

How the data were processed

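Per the submitters' processing notes, reads were processed with fastp 0.23.4 and STAR 2.7.11b on GRCm39. Per the file headers, the authors counted fragments with featureCounts 2.0.1 over the exons of GENCODE M34, without strand, with a fragment over several genes counted for each and fragments with several alignments not counted. The deposited values are raw counts. Of 57126 genes, 51884 matched a symbol. Between replicates of a group, chi-square per degree of freedom of the counts was 15.4 to 347, where counting error alone gives 1.

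In R 4.3.3, edgeR 4.0.16 kept 17555 genes (filterByExpr, minimum count 10), applied TMM factors and fitted a coefficient per group to all 9 libraries (6 residual degrees of freedom, robust quasi-likelihood test). Benjamini-Hochberg adjustment of p-values ran over all tested genes, with a threshold of 0.05. The standard error is the log2 fold change divided by the square root of F. Differences by replicate number use log2(CPM + 0.5). DESeq2 1.42.0 and limma 3.58.1 served as alternatives. Scripts were tested on simulated counts. GC content is that of the longest GENCODE M21 transcript.

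Samples of equal number deviated together in every pair (correlations of deviations from the group means of 0.498 to 0.905). Replicates 1 and 2 also correlated across numbers (0.548 to 0.739), in places above their own number, so these values separate replicate 3 from the other 2 and do not tell 1 from 2. The labels do not say what the numbers share.

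Members, the 15 lists (7 pathway, 8 cell type) and the tests were chosen with earlier results of these data known. Named genes are the members, from each pathway list the 4 genes with the smallest p against PBS, the 5 genes most like each member, and genes of a list named beside them for their role (Trp53, chosen after its values were seen). One overlap between genes is not reported here. A second, shorter Ddit3 identifier was left out of the lists.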

Additional observations from a re-analysis of the deposited data

How the results depend on the processing

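The 12 fold changes of members and the 3 counts of called genes were recomputed under 20 alternatives, of which 9 leave out a library. Of the 12, 8 kept their direction under every alternative. Gadd45g in Ox-mtDNA against PBS stayed between 3.36 and 4.28, with adjusted p from 3.59e-05 to 0.801, and passed under DESeq2 (4.02), in replicates 1 and 2 only (3.8) and under limma-voom with quality weights and the replicate block (3.36), a setting chosen after seeing the data. The fold changes that did not keep their direction reversed under some alternatives, and not all of their values were near 0. Gadd45gip1 in Ox-mtDNA against PBS was -0.06 with no filter, -0.18 in replicates 1 and 2 only, with and without the replicate block, -0.03 with the quality weights, and -0.16 to 0.1 with a library left out. Gadd45b in that comparison was -0.14 with the quality weights and -0.19 to 0.83 with a library left out. In Ox-mtDNA against mtDNA, Gadd45b was 0.39 in replicates 1 and 2 only, 0.29 there with the replicate block, and -0.88 to 0.13 with a library left out, and Gadd45a was -0.12 to 2 with a library left out. Counts of called genes in Ox-mtDNA against PBS were 370 with DESeq2, 1 with the replicate block, 25 in replicates 1 and 2 only and 423 with the quality weights. They were 14 and 1337 in mtDNA against PBS and 1 and 14 in Ox-mtDNA against mtDNA, with DESeq2 and with the quality weights. The cause of these differences was not tested. With all 9 libraries the replicate block changed no call of a member. In replicates 1 and 2 only, Gadd45g in Ox-mtDNA against PBS lost its call with the block, at 3.77 (edgeR adjusted p = 0.103) with it and 3.8 (edgeR adjusted p = 0.0339) without it. DESeq2 size factors or upper quartile scaling reversed no member, and the median of all genes stayed within 0.02 to 0.1 under them. Counts spread more between replicates of a group than counting error alone gives, and depth was not varied.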
